A study of Mus musculus with 6 samples.

Results

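Neurotrophins are secreted growth factors, and the genes described here are 2 of the ligands, Bdnf and Ntf3, and 4 of the receptors, Ntrk2, Ntrk3, Ngfr and Sort1. They were chosen by symbol, through the Ensembl identifiers of the deposited expression table and the GENCODE M21 annotation. All 6 symbols had 1 row each among 46078 genes in the table, of which 29430 had a count in at least 1 library. The samples were striata of 12-week-old mice on the C57BL/6J background, taken from 3 wild-type (WT) mice and 3 mice carrying an EGFP-Shank3 transgene (Shank3 TG), which adds an EGFP-tagged copy of the postsynaptic scaffold Shank3 to the endogenous gene. The mice were male, per the methods of the study. Each mouse gave 1 RNA-seq library, and the promoter of the transgene is not given in the sources used here. The libraries are called TG1 to TG3 and WT1 to WT3 after their labels. The comparison asks whether a modest excess of Shank3 goes with other transcript levels of this signaling system in the striatum.

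Neurotrophins are made as precursors and cleaved to mature ligands. Mature BDNF binds the receptor tyrosine kinase TrkB, the product of Ntrk2, and neurotrophin-3, the product of Ntf3, binds mainly TrkC, the product of Ntrk3. The p75 receptor, encoded by Ngfr, binds every mature neurotrophin and, together with sortilin, the product of Sort1, binds the uncleaved precursors. In the striatum, spiny neurons carry TrkB and depend on BDNF that is largely made in cortical neurons and carried along their axons, so that local Bdnf mRNA is only one source of the protein. p75 is known in the forebrain mainly from cholinergic neurons.

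The members differ in gene structure, which matters for what a single value per gene can show. Bdnf (ENSMUSG00000048482, chr2:109674700-109727007, plus strand, GRCm38) has 11 annotated transcripts, all coding, that encode 3 lengths of the precursor between 249 and 289 residues. Ntf3 (ENSMUSG00000049107, chr6:126101412-126166910, minus strand) has 3 transcripts for 2 lengths, 258 and 271 residues. Ntrk2 (ENSMUSG00000055254, chr13:58806569-59133970, plus strand) has 7 coding transcripts of 466 to 821 residues, which include receptors with and without the kinase domain. Ntrk3 (ENSMUSG00000059146, chr7:78175959-78738012, minus strand) has 6 coding transcripts of 82 to 864 residues. Ngfr (ENSMUSG00000000120, chr11:95568818-95587735, minus strand) has 1 transcript of 427 residues, and Sort1 (ENSMUSG00000068747, chr3:108284082-108361511, plus strand) has 2 coding transcripts of 825 and 858 residues. The deposited value sums all transcripts of a gene, so full-length and truncated TrkB or TrkC cannot be told apart in it.

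The sequences before the transcription start sites show how unlike the promoters of these genes are, and that the Bdnf value pools several of them. The RefSeq promoter table (GRCm38.p6) held 11 windows for 4 of the members, of which 7 belong to Bdnf, 2 to Ntf3, 1 to Ntrk2 and 1 to Ngfr. Ntrk3 and Sort1 were not matched. Shown here are the first and the third Bdnf start in genome order, the latter because it holds the only match to a CRE-like motif, and the single starts of Ntrk2 and Ngfr. Each runs 5′ to 3′ on the gene's strand and ends at the base before the start or, for Ngfr, before the first annotated exon base. They cover chr2:109674500-109674699 and chr2:109692236-109692435 on the plus strand, chr13:58806369-58806568 on the plus strand and chr11:95587736-95587898 on the minus strand. Capitals mark the CRE-like motif in the third Bdnf start and GC boxes in Ngfr.
Bdnf start 1: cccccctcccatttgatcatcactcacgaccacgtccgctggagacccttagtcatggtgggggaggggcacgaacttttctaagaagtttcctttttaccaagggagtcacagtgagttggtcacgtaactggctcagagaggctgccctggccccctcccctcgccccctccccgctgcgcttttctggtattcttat
Bdnf start 3: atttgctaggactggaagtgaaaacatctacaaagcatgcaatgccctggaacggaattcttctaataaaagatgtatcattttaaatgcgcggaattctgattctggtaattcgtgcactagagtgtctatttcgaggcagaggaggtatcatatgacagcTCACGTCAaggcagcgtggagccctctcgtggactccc
Ntrk2 start 1: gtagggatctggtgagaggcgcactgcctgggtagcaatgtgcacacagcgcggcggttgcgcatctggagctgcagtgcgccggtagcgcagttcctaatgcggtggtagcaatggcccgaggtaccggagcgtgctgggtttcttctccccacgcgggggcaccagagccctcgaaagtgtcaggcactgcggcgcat
Ngfr start 1: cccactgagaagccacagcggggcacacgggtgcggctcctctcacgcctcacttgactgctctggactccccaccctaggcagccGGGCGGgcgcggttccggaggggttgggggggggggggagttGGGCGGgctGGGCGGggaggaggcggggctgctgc

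In the 250 bases before each start, 6 motifs were searched on both strands, and a match is a description of letters, not a binding site. The CRE-like motif TCACGTCA lay 38 to 31 bases before the third Bdnf start, and 0.35% of all 32851 windows hold it. This match also contains the shorter half-site TGACG, which 17.8% of windows hold. The full motif TGACGTCA, present in 1.55% of windows, was not found in any of the 11, and neither was TATAAA, present in 12.4%. CACGTG was found before the first Ntf3 start only, against 6.02% of all windows. The GC box GGGCGG, present in 32.7% of windows, had 4 matches before Ngfr, of which the 3 farthest from the start lie in the stretch shown. It had 2 before the second Bdnf start and 1 each before the fourth Bdnf start and both Ntf3 starts. The Ngfr window was 70.4% G and C, above 91.2% of windows, and those of Bdnf ranged from 39.2% to 59.6%.

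The libraries held between 27689589 and 36647626 counts on genes. Shank3 checked the genotype labels and reached 28081 ± 1934 normalized read counts in Shank3 TG and 13530 ± 531 in WT mice (mean ± SD, n = 3 each), which is 1.05 on the log2 scale (adjusted P = 7.04e-05, limma with Benjamini-Hochberg adjustment). A normalized read count is the gene's read count divided by the size factor of its library. Fold changes were fitted with limma on log2(normalized read count + 1) for 17605 genes with a mean of at least 10, so they understate changes of genes near that minimum. Markers of spiny neurons were present at 170747 to 236233 summed normalized read counts in the 6 libraries, and no marker of the 10 cell type lists was at 0 in any library. TG1 stood apart by its choroid plexus markers, whose sum was 28811 against 8052 to 9471 in the other libraries, and all 10 of them were above their own mean there. TG1 also had the lowest sum of spiny neuron markers. Microglial markers summed to 11173 to 12059 in Shank3 TG and 12103 to 12667 in WT mice, with 0 of 8 higher in the mean of TG. Spiny neuron markers were higher in 2 of 12 cases and mural cell and fibroblast markers in 1 of 9. All 10 choroid plexus markers were higher, where 49.2% of all genes tested were. No gene of any marker list was called here by limma, edgeR or DESeq2 with all 6 libraries. The study, whose DESeq2 P values were first corrected by an estimated null distribution, called the choroid plexus marker Clic6 higher in Shank3 TG mice. Without TG3, limma called the choroid plexus marker Prlr.

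None of the neurotrophin and receptor genes differed between genotypes beyond the spread between mice. By limma, 0 of the 5 members that passed the minimum were called at an adjusted P of 0.05, 0 of 5 had an unadjusted P below 0.05, and edgeR and DESeq2 on the recovered read counts also called 0. Over all genes tested, 0.00568% were called by limma or edgeR, 0.0398% by DESeq2, and 4.31% had an unadjusted P below 0.05. The groups overlapped for all 6 members, where 10.1% of all genes tested had groups that did not overlap. A P that misses the threshold does not show equal levels, so the 95% interval of each difference is given with it.

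**Figure D1:**
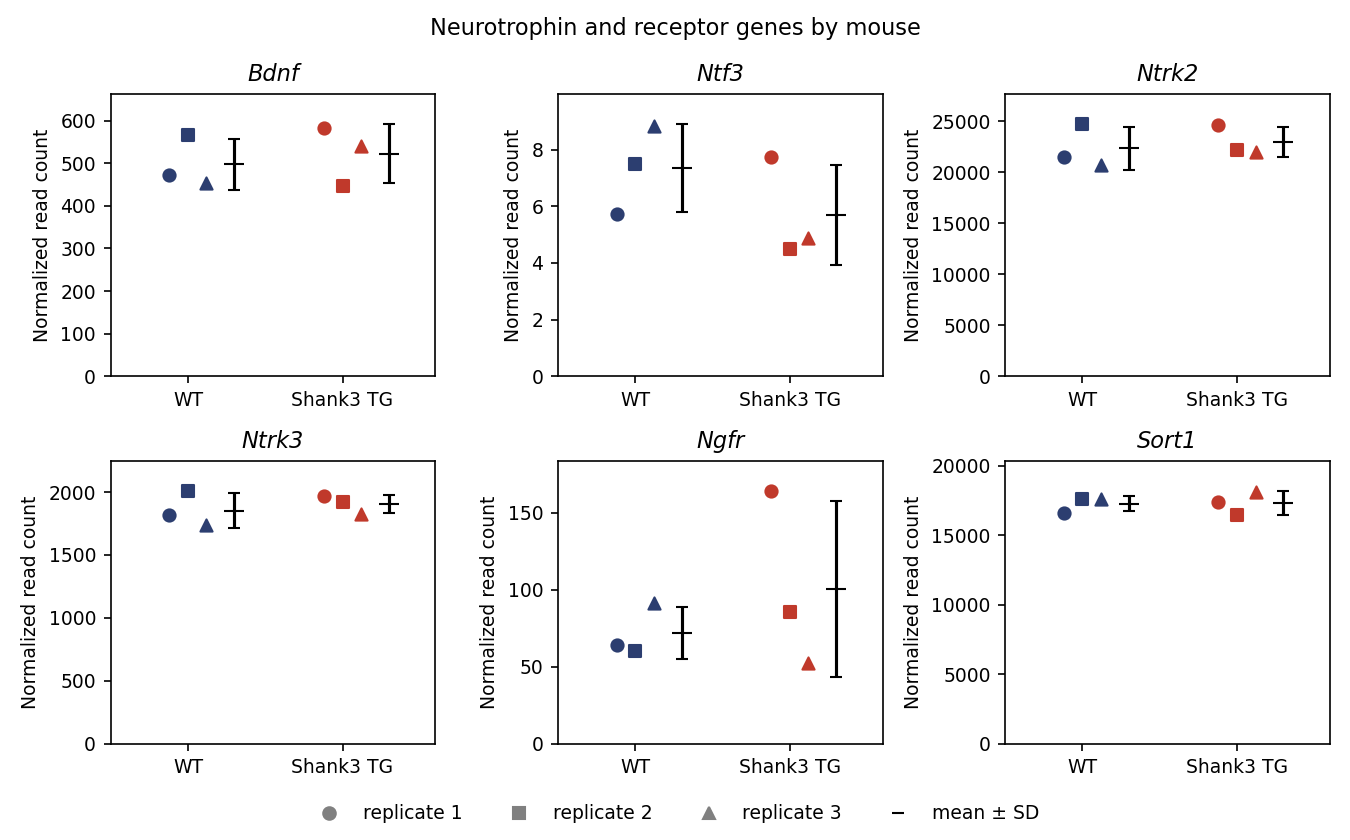
Normalized read counts (vertical axes, each from 0) of the 6 genes in each WT and Shank3 TG mouse. Each point is 1 library, marked by its replicate number, which was not taken to pair mice, and bars show mean ± SD (n = 3). In every panel the 2 groups overlap, and the widest spread is that of Ngfr, with TG1 at 164 and the other libraries between 52.6 and 91.3.

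Bdnf encodes the ligand of TrkB. Its normalized read counts were 583, 446 and 540 in TG1, TG2 and TG3 and 473, 566 and 455 in WT1, WT2 and WT3. High and low mice occurred in both genotypes, with TG1 and WT2 at the top and TG2 and WT3 at the bottom. The means were 523 ± 69.8 in Shank3 TG and 498 ± 59.7 in WT mice (SD, n = 3 each). The log2 fold change was 0.07 (SE 0.11, adjusted P = 0.983 by limma with Benjamini-Hochberg adjustment), with a 95% interval from 0.884-fold to 1.25-fold.

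The spread of Bdnf between mice was wide for its level. Its SD within groups was 0.18 on the log2 scale, above that of 92.4% of the 2712 genes whose mean was within 1.5-fold of it, and the median SD of all genes tested was 0.11. The coefficient of variation of the Bdnf counts over the 6 libraries was 11.7%, where counting error alone gives 4.39%. Markers of cortical excitatory neurons differed between the same mice. Their sum was lowest in TG2, at 33498, where Bdnf was also lowest and 0 of the 11 markers were above their own mean, and highest in TG1, at 46751, where Bdnf was highest and 11 of 11 were above. The match was not complete, since WT1 had a marker sum of 44831 with the third lowest Bdnf count. WT2 had a lower sum, 42799, with the second highest Bdnf count. Thalamus markers had their highest median deviations in TG1, WT2 and TG3, in that order, as Bdnf had its highest counts. By the sum of these 6 markers the order was another. TG2, with the lowest Bdnf count, then stood at 4059, between WT2 at 4214 and TG1 at 4007. The sums of cortical markers overlapped between genotypes, at 33498 to 46751 in Shank3 TG and 38700 to 44831 in WT mice. The part of cortical or thalamic cells in the Bdnf values was not tested. In such bulk tissue, fewer cells of a type and less RNA per cell cannot be told apart. The antisense gene Gm45346 shares 896 exon bases with Bdnf, and as the library kit does not mark strand, reads of the pair there cannot be assigned to one strand. Gm45346 had no row of its own in the deposited table, so its level is not known here.

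Ntf3 encodes the ligand of TrkC and was barely detected in the adult striatum. Its normalized read counts were 7.72, 4.50 and 4.87 in TG1 to TG3 and 5.72, 7.48 and 8.84 in WT1 to WT3. They rest on 4 to 9 counts per library, in all 18 counts in Shank3 TG (95% exact Poisson interval 10.7 to 28.4) and 22 in WT mice (13.8 to 33.3), intervals that cover counting error only. The 2 lowest libraries were TG2 and TG3, while TG1 lay above WT1 and WT2. The log2 difference was −0.33 (two-sided exact permutation test, P = 0.3, smallest possible P 0.1 with 3 against 3). Ntf3 was under the minimum mean and was left out of the fit across genes. Its coefficient of variation over the libraries, 26.7%, was below the 38.7% that counting error gives at this depth, so a difference of this size was not detectable.

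Ntrk2 encodes TrkB and had a level per kb of exon above that of 96.2% of genes with a count. Its normalized read counts were 24624, 22194 and 22018 in TG1 to TG3 and 21494, 24739 and 20742 in WT1 to WT3. As with Bdnf, the top places went to 1 mouse of each genotype, WT2 and TG1. The means were 22945 ± 1456 in Shank3 TG and 22325 ± 2124 in WT mice (SD, n = 3 each). The log2 fold change was 0.04 (SE 0.07, 95% interval −0.12 to 0.20, adjusted P = 0.983 by limma), an interval of 0.921-fold to 1.15-fold. Astrocytes, which make truncated TrkB, had marker sums of 118917 to 125293 in Shank3 TG and 116111 to 124528 in WT mice, and the libraries with the 2 highest Ntrk2 values, WT2 and TG1, also had the 2 highest of these sums. The WT2 sum included 5794 normalized read counts of Gfap, against 2187 to 3431 in the other libraries. In WT2, 5 of the 9 astrocyte markers were above their own mean. WT1 had a sum of 122182 with the second lowest Ntrk2 count. Sums of thalamus markers ran in the order of Ntrk2 apart from TG1 and TG2, which changed places. Sums of spiny neuron markers ran otherwise, lowest in TG1, at 170747, and highest in WT3, at 236233, where Ntrk2 was lowest. The parts of astrocytes, thalamic cells and spiny neurons in the Ntrk2 values were not tested.

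Ntrk3 encodes TrkC. Its normalized read counts were 1966, 1923 and 1822 in TG1 to TG3 and 1817, 2006 and 1736 in WT1 to WT3. The 6 libraries fell in the same order as for Ntrk2, from WT2 at the top through TG1, TG2, TG3 and WT1 to WT3. The means were 1904 ± 73.9 in Shank3 TG and 1853 ± 139 in WT mice (SD, n = 3 each), and the log2 fold change was 0.04 (SE 0.06, 95% interval −0.10 to 0.18, adjusted P = 0.980 by limma). Within groups the SD was 0.09 on the log2 scale, above that of 69.8% of 2805 genes at a like level.

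Ngfr encodes p75 and was the most variable member. Its normalized read counts were 164, 85.4 and 52.6 in TG1 to TG3 and 64.1, 59.9 and 91.3 in WT1 to WT3. Shank3 TG mice held both the highest and the lowest value, 3.12-fold apart, and all WT mice lay between them. The means were 101 ± 57.2 in Shank3 TG and 71.7 ± 17.1 in WT mice (SD, n = 3 each). The log2 fold change was 0.35 (SE 0.34, 95% interval −0.39 to 1.10, adjusted P = 0.971 by limma), so that anything from 0.761-fold to 2.15-fold lay within the interval. Without TG1 the log2 fold change was −0.07, and without TG3 it was 0.74, with an adjusted P above 0.05 in both cases.

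The spread of Ngfr exceeded what counting error gives. Its coefficient of variation was 47.5% over the 6 libraries against 10.6% from counting, and its SD within groups, 0.62 on the log2 scale, was above that of 98.3% of 1638 genes at a like level. TG1, the highest library, was also the one with raised choroid plexus markers, where Ttr, which encodes the thyroid hormone carrier transthyretin, reached 13701 against 120 to 1122 elsewhere. The median deviation of the 10 choroid plexus markers from their own means was 2.36 on the log2 scale in TG1, 0.49 in TG2, −1.07 in TG3, −0.59 in WT1, −0.76 in WT2 and −0.39 in WT3. Ngfr deviated by 1.03, 0.10, −0.59, −0.31, −0.41 and 0.19 in the same libraries, and the order was the same apart from TG2 and WT3, which changed places. Markers of mural cells and fibroblasts also had their highest median deviation in TG1, at 0.24, and their lowest in TG3, at −0.27. Between them lay WT1 at 0.10, WT3 at 0.08, TG2 at −0.09 and WT2 at −0.10, so only WT1 was out of the Ngfr order. Their sum, however, was highest in WT1, at 6624, against 5786 in TG1. Cholinergic neuron markers followed another order than Ngfr, with the highest sum in TG2, at 2258, and the lowest in TG1, at 1419. The parts of tissue near the ventricle, of mural cells and fibroblasts and of cholinergic neurons in the Ngfr values were not tested.

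Sort1 encodes sortilin, a sorting receptor that binds precursor neurotrophins and also directs other proteins to lysosomes. Its normalized read counts were 17357, 16431 and 18122 in TG1 to TG3 and 16613, 17606 and 17564 in WT1 to WT3. The highest and the lowest library were both Shank3 TG mice, only 1.10-fold apart. The means were 17304 ± 847 in Shank3 TG and 17261 ± 561 in WT mice (SD, n = 3 each), and the log2 fold change was 0.0029 (SE 0.05, 95% interval −0.11 to 0.12, adjusted P = 0.997 by limma). This was the narrowest interval of the members, 0.925-fold to 1.09-fold. The antisense gene Gm12523, which shares 338 exon bases with Sort1, had at most 5.61 normalized read counts in any library. As for Bdnf, reads in the shared bases cannot be assigned to one strand, so this count does not bound antisense reads there.

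**Figure D2:**
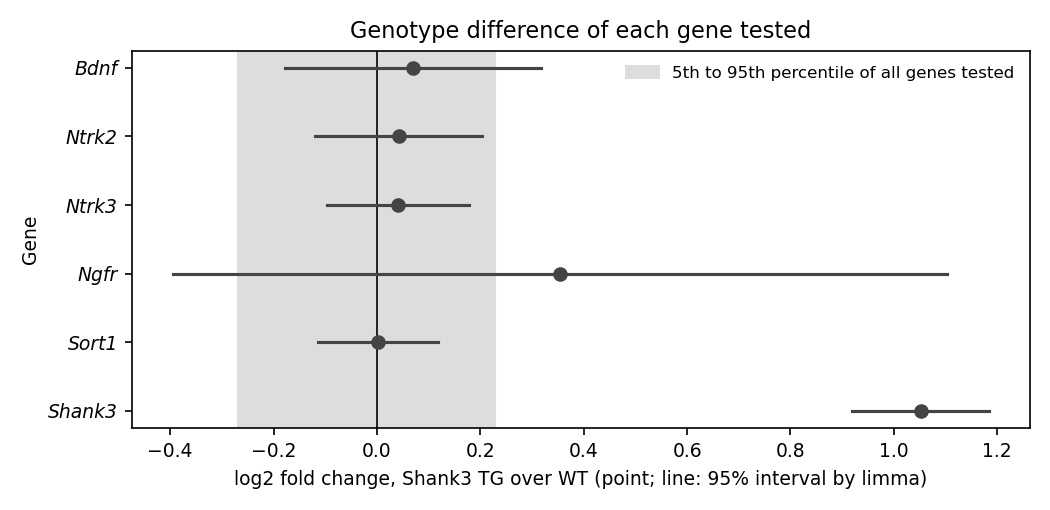
Log2 fold change of Shank3 TG over WT mice (horizontal axis) for the 5 members tested and for Shank3, with 95% intervals by limma as lines. The gray band holds the middle of all 17605 genes, from the 5th to the 95th percentile (−0.27 to 0.23), and the intervals of all 5 members include 0.

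Since a longer transcript gives more reads, levels were compared between genes as normalized read counts per kb of exon, taking the union of all annotated exons as the length. Sort1 was highest, at a mean of 2283 per kb over the 6 libraries, followed by Ntrk2 at 1173, Bdnf at 82.1, Ntrk3 at 62.3, Ngfr at 25.01 and Ntf3 at 3.80. The ranges of neighbors in this order did not overlap over the 6 libraries. Both receptors at the top were far above the ligands, as Ntrk2 had 14.3-fold the level per kb of Bdnf. Among the ligands, Bdnf ranged from 71.8 to 93.7 per kb and Ntf3 from 2.62 to 5.16 per kb.

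The order of the top 2 depended on the length used. With the longest annotated transcript as the length, a setting added after the data were seen, Ntrk2 reached 2589 per kb and Sort1 2528 per kb, and their ranges overlapped. All exons of Ntrk2 together span 19292 bases, and its longest transcript 8744 bases. The order of Bdnf, Ntrk3, Ngfr and Ntf3 was the same under both lengths.

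**Figure D3:**
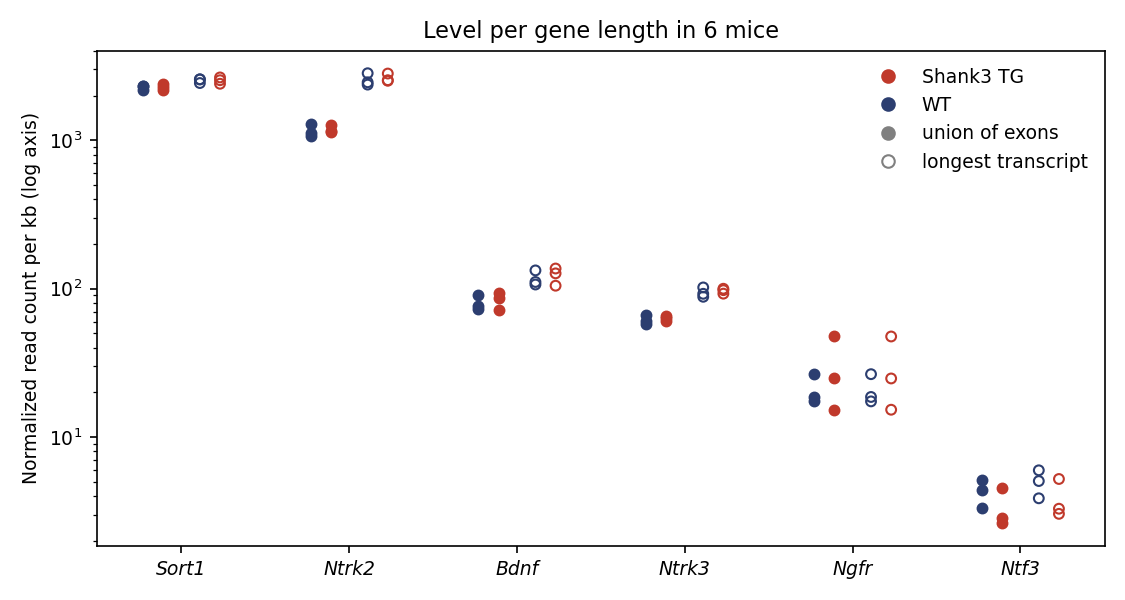
Normalized read counts per kb (log axis) of the 6 genes in the 6 mice, by genotype, with the union of exons (filled) or the longest transcript (open) as the gene length. Sort1 and Ntrk2 lie at or above 1075 per kb, Bdnf, Ntrk3 and Ngfr between 15.3 and 137, and Ntf3 at or below 5.96.

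Ratios within a library were compared between genotypes for 3 pairs, with a pseudocount of 1 added to both values (two-sided exact permutation test, smallest possible P 0.1). The log2 ratio of Ntrk2 to Ntrk3 was 3.59 ± 0.06 in Shank3 TG and 3.59 ± 0.03 in WT mice (P = 1.0, exact, adjusted 1.0). In single mice, Ntrk2 counts were between 11.5 and 12.5 times those of Ntrk3 and overlapped between genotypes. The log2 ratio of Ngfr to Ntrk2 was −7.97 ± 0.73 in Shank3 TG and −8.28 ± 0.43 in WT mice (P = 0.7, exact, adjusted 1.0). That of Bdnf to Ntf3 was 6.31 ± 0.23 and 5.91 ± 0.33 (P = 0.2, exact, adjusted 0.6), a difference of 0.40, with WT3 lowest and TG3 and TG2 highest. With a pseudocount of 5 the difference was 0.28 (P = 0.1, exact permutation test, not adjusted), the smallest possible P. Both rest on the few counts of Ntf3.

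Across the 6 libraries the members did not vary as 1 group. Likeness was measured as the root mean square difference between log2 profiles centered on their own means, where 0 is identity. Ntrk2 and Ntrk3 differed by 0.0388, which placed Ntrk3 16th among the 12831 genes compared with Ntrk2, and Ntrk2 51st in the list of Ntrk3. Bdnf differed from Ntrk2 by 0.0914 and from Sort1 by 0.131, and Ngfr differed from Ntrk2 by 0.515. These are descriptions over 6 libraries that share their size factors, and many genes lie close to a profile with so little variation.

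The genes with the most similar profiles were Tuba1b (0.0492), Kcnb2 and Apba2 for Bdnf, Dok6 (0.0244), Snhg8 and Efcab6 for Ntrk2, and Efcab6 (0.0158), Rpn1 and Mospd1 for Ntrk3. Those of Sort1 were Sart3 (0.0122), Scn8a and Tldc1. Ngfr was nearest to Ropn1l (0.137), Gm26647 and Ret. Ret, the receptor tyrosine kinase for ligands of the GDNF family, had 199 normalized read counts in TG1 and 79.8 to 115 in the other libraries. Ntf3 was nearest to Gm3883 (0.0397), Ptpn14 and Cxcl16, from profiles that rest on its few counts.

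**Figure D4:**
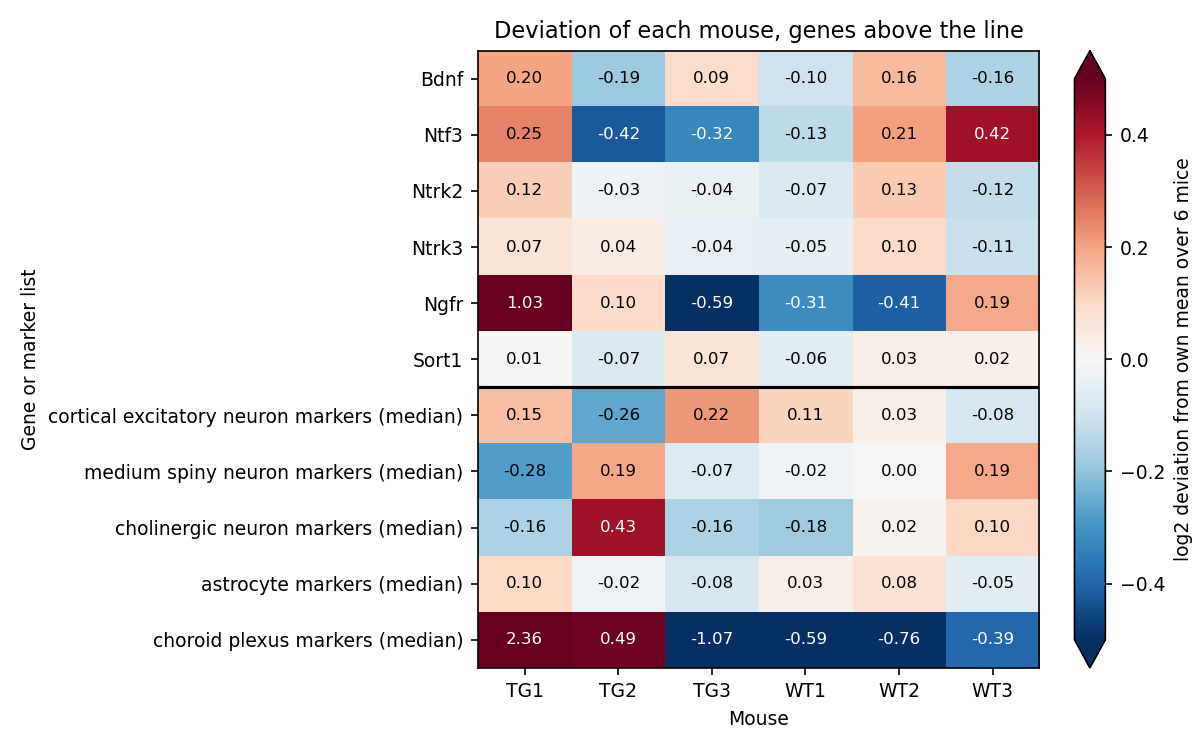
Log2 deviation of each mouse from the gene's own mean over 6 mice (members, above the line) and the median such deviation of 5 marker lists (below). Colors stop at ±0.5 and the numbers give the full value. Ngfr stands out in TG1, at 1.03, where the choroid plexus markers reach 2.36, and the rows of Ntrk2 and Ntrk3 run alike.

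Around these 6 genes, 108 genes of the pathway were grouped in 8 lists by role, and 105 of them passed the minimum. By limma none was called in either direction (smallest adjusted P 0.971), and none was called by edgeR or DESeq2. Of the 105 genes, 4 had an unadjusted P below 0.05 (3.81%, against 4.31% of all genes), and 8 had groups that did not overlap (7.62%, against 10.1%). The mean was higher in Shank3 TG mice for 54 and lower for 51, with a median log2 fold change of 0.01, against −0.0018 over all genes. In the following, values of single genes are differences that did not pass the adjusted threshold.

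Among the other ligands and receptors, Ntf5, which encodes neurotrophin-4, had 0 to 8.58 normalized read counts in the 6 libraries and was not tested. The sortilin relatives were abundant, with Sorl1 at 9874 to 12166 normalized read counts, and of the 7 genes tested 5 were higher and 2 lower in TG (median log2 fold change 0.07, and 0.025 without TG1). The smallest P values in this list were those of Sorcs3, with a log2 fold change of 0.10, Sorl1, with 0.09, and Sorcs1, with 0.07, which was 0.14 without TG1.

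Of the genes that cleave or sort proneurotrophins, 4 were higher and 4 lower. Mmp9, which encodes a secreted protease able to cleave proBDNF, was at 28.3, 25.9 and 24.3 normalized read counts in TG1 to TG3 and 19.5, 21.5 and 11.8 in WT1 to WT3. Its groups did not overlap, and its log2 fold change of 0.59 (SE 0.27) had an adjusted P of 0.971 by limma. Pcsk5 and Pcsk1, which encode proprotein convertases, had log2 fold changes of 0.18 each with overlapping groups. Cpe, a carboxypeptidase with a role in sorting proBDNF and the most abundant of the list per kb, was at 58166 ± 3061 in Shank3 TG and 58199 ± 2080 in WT mice, with a difference of −0.0015 on the log2 scale, and of −0.043 without TG1.

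Downstream of the Trk receptors, adaptor genes were higher in 10 and lower in 8 of 18 cases (median 0.01), genes of the Ras-MAPK arm in 8 and 8 (median 0.01) and those of the PI3K-Akt arm in 9 and 5 (median 0.02). Map2k2, which encodes the kinase MEK2, had 2127 ± 15.8 normalized read counts in Shank3 TG and 2314 ± 44.2 in WT mice, with no overlap and a log2 fold change of −0.12. Pik3r3, a regulatory subunit of PI3-kinase, had 2097 ± 39.2 and 1890 ± 119, also with no overlap, and a log2 fold change of 0.15. Both had an adjusted P of 0.971 by limma. Hras, a small GTPase of the Ras-MAPK arm, was at −0.10, and Rapgef1, Shc3 and Sh2b1 among the adaptors were at −0.08, −0.10 and −0.07. Kidins220, a scaffold that binds Trk receptors and p75, was at 0.02, and Akt2, Pik3r2 and Gsk3a were at −0.09, −0.07 and −0.01. Without TG1, adaptor genes were higher in 8 and lower in 10 cases (median −0.011), and the medians of the Ras-MAPK and PI3K-Akt arms were 0.014 and 0.039. Sh2b1, Akt2, Pik3r2 and Gsk3a were then at −0.11, −0.15, −0.11 and −0.018, and Kidins220 was at 0.060.

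The 11 genes for partners of p75 were lower in 9 and higher in 2 cases, with a median log2 fold change of −0.05. With all libraries, none was below an unadjusted P of 0.05 by limma. Tnfrsf19, which encodes the co-receptor TROY, was at −0.10, Arhgdia, which encodes a GDP dissociation inhibitor that p75 displaces, at −0.05, and Prdm4 and Maged1, which encode proteins that bind p75, at 0.10 and 0.07. The regulators of Bdnf transcription were higher in 6 and lower in 9 of 15 cases (median −0.02). Crtc1, a coactivator of CREB, had 7668 ± 84.3 normalized read counts in Shank3 TG and 8198 ± 235 in WT mice, with no overlap and a log2 fold change of −0.10. Creb1 itself was at 0.11, Srf at −0.10 and Mef2d at −0.03. Without TG1, Arhgdia was at −0.12, Maged1 at 0.043 and Mef2d at −0.053, and the regulators of Bdnf transcription were higher in 7 and lower in 8 cases. The p75 partners then had a median of −0.07. Of these 11, 2 were lower at an unadjusted P below 0.05, against 4.55% of all 17578 genes tested, with 0 called by limma.

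Genes induced by TrkB signaling were higher in 10 and lower in 6 of 16 cases, with a median log2 fold change of 0.04. Vgf, which encodes a secreted neuropeptide precursor, had 8750 ± 611 normalized read counts in Shank3 TG and 7881 ± 492 in WT mice, and its log2 fold change was 0.15. Etv5, a transcription factor induced by MAPK signaling, had 3980 ± 443 and 3499 ± 192, a log2 fold change of 0.18, and Dusp5, a MAP kinase phosphatase, was at 0.18. Arc was at 0.0077, and −0.071 without TG1. The split changed with 1 library, since without TG1, a count added after the data were seen, 5 genes were higher and 11 lower (median −0.01), and 4 of the 16 were then lower at an unadjusted P below 0.05, against 4.55% of all 17578 genes tested, with 0 called by limma. Vgf and Etv5 were then at 0.09 and 0.10. Other lists also held genes at an unadjusted P below 0.05 by limma without TG1. The Ras-MAPK arm had 1 higher and 2 lower of 16, and the PI3K-Akt arm 2 higher and 1 lower of 14. Regulators of Bdnf transcription had 1 higher and 1 lower of 15, adaptors 1 lower of 18 and processing genes 1 lower of 8. Among the other ligands and receptors there was none.

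**Figure D5:**
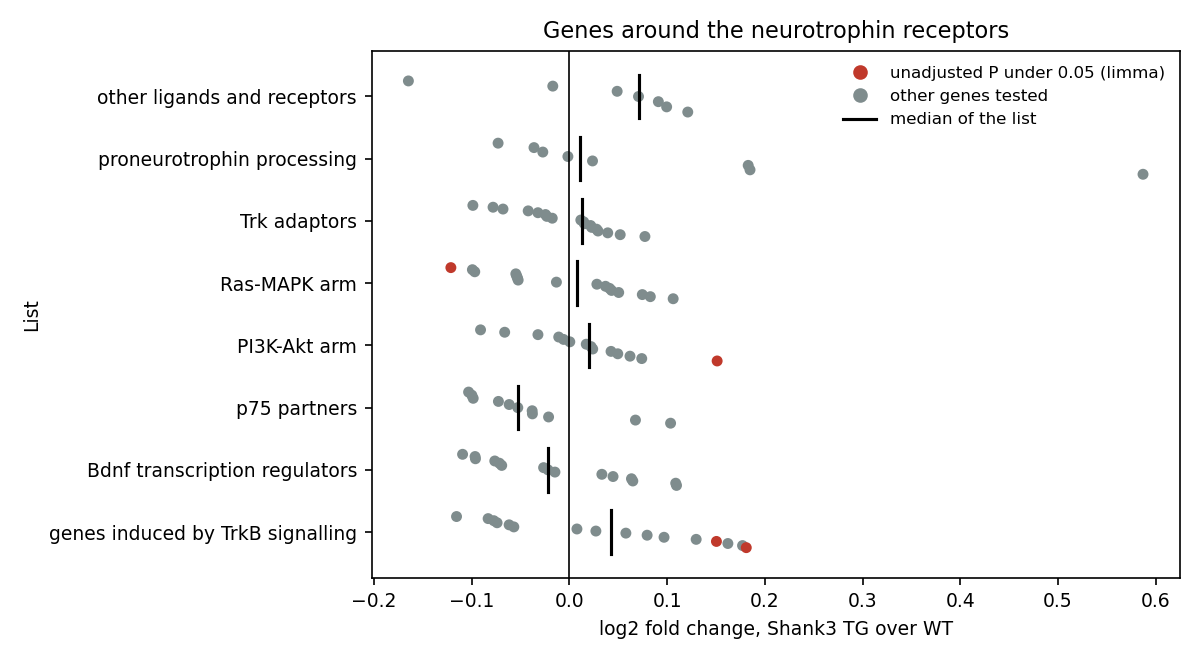
Log2 fold change of Shank3 TG over WT mice (horizontal axis) for the 105 tested genes in 8 lists around the neurotrophin receptors, with the list medians as black lines. Points in red have an unadjusted P below 0.05 by limma (Map2k2, Pik3r3, Vgf and Etv5), no gene passed the adjusted threshold, and the medians lie between −0.05 and 0.07.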

How the data were processed

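Striatal RNA of 3 WT and 3 Shank3 TG mice was sequenced by the authors from unstranded paired-end libraries. Reads were trimmed with Trimmomatic 0.35, aligned to GRCm38 with TopHat2 2.1.0 and counted with HTSeq, per the study's methods and the submitters' processing notes. The strand setting and the annotation release are not given in the sources used here. The values the authors deposited are a signal, in which each gene's reads were scaled by the size factor that DESeq2 estimated for that library. Whole read counts were recovered for 100% of values within 0.01, at 27689589 to 36647626 per library. At this depth counting error, as a coefficient of variation, was 38.7% for Ntf3, 10.6% for Ngfr and at most 4.39% for the other members. Of 46078 identifiers, 45143 were matched to GENCODE M21.

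The main test was limma 3.58.1 with a mean-variance trend (R 4.3.3) on log2(value + 1) for the 17605 genes whose mean reached 10, and P values were adjusted over them after Benjamini-Hochberg, with a threshold of 0.05. Alternatives were edgeR 4.0.16 (quasi-likelihood) and DESeq2 1.42.0 on the recovered counts, which call 1 and 7 genes, scaling by TMM or by library totals, a minimum mean of 50 or none, a pseudocount of 0.5 or 5, the omission of each library in turn, and a block on the replicate number. Ratios within a library and Ntf3 were tested with exact permutation tests (scipy 1.17.1). The fits were tested on simulated data. Gene names given are all members, Shank3, up to 3 genes per pathway list with the smallest P value and the most abundant per kb, the 3 nearest profiles of each member, and defining markers. Ntf5 was added after its values were seen. Some genes that this rule names are not reported here. Members and lists were chosen with earlier results of these data known. Each library came from another mouse, and the P values weigh differences between genotypes against the spread between libraries of different mice.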

Additional observations from a re-analysis of the deposited data

How the results depend on the processing

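None of the 5 tested members was called under any of the 15 alternatives, and neither was Ntf3 in the fit without a filter (adjusted P = 0.904, limma). The adjusted P values of the 5 tested members lay between 0.888 and 1.000 over all settings. Signs of differences near 0 depended on single libraries. Over the fits that leave out 1 library each, the log2 fold change ranged from −0.013 to 0.18 for Bdnf (negative without TG1), from −0.010 to 0.12 for Ntrk2 (negative without TG1, and −0.0090 without WT3), from −0.0052 to 0.099 for Ntrk3 (negative without WT3), from −0.071 to 0.74 for Ngfr (negative without TG1), and from −0.031 (without TG3) to 0.040 for Sort1 (−0.024 without WT1). That of Ntf3 stayed negative, from −0.54 to −0.20. The difference in log2 ratio ranged from −0.027 to 0.032 for Ntrk2 over Ntrk3 (negative without TG1, TG3, WT1 or WT3), from −0.062 (without TG1) to 0.67 for Ngfr over Ntrk2 and from 0.21 to 0.53 for Bdnf over Ntf3. Fewer samples entered each of these fits. The other settings left the sign of the difference of the 5 tested members as it was, and that of Ntf3 was computed without a filter, with both other pseudocounts and with the block, and stayed negative. With the longest transcript as the length, Sort1 had 0.977 times the level per kb of Ntrk2 in place of 1.95 times, and Bdnf 1.25 times that of Ntrk3 in place of 1.32 times.

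Over all genes, limma called 1 gene higher and 0 lower, with 758 genes at an unadjusted P below 0.05. DESeq2 called 5 higher and 2 lower, limma without a filter 4 higher and 1 lower, and leaving out single libraries gave 1 to 2 higher (2 without TG3) and 0 to 1 lower (1 without TG2). The cause was not tested. The deviations of same-numbered mice had correlations of 0.05, 0.02 and 0.09, and those of differently numbered mice ranged from −0.12 to 0.08. The labels state no pairing, so the replicate numbers were not taken to pair mice. With the replicate number as a block, 1 gene was called higher and 0 members. Depth limits Ntf3, with 40 counts in all libraries, and 3 mice per group limit Ngfr.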
